A study of Mus musculus with 4 samples.

Results

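The genes described here are the mouse mitochondrial ribosomal protein genes, taken as the protein-coding genes whose GENCODE symbol is Mrpl or Mrps followed by a number. Of 50600 annotated genes, 21764 of them protein coding, 78 met that rule, 49 named Mrpl for the large subunit and 29 named Mrps for the small one. The 5 pseudogenes with such symbols were left out. The samples were 4 libraries of primary T-helper 2 (Th2) cells from mice of strain C57BL/6NJ. These CD4 T cells were differentiated by a protocol that the labels link to, and names in the file headers give 72 h and a sort. The labels give no treatment or genotype beyond this, list the age as unknown and record no sex. They call the 4 libraries biological replicates with a biosample each but 1 shared donor entry, so separate animals are not stated and p-values measure the spread between these samples. With 1 group, values can be compared among genes of the same library and among the 4 replicates.

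The mitochondrial ribosome translates the few mRNAs of the mitochondrial genome, all of which code for subunits of the respiratory chain and ATP synthase. Its rRNAs come from the mitochondrial genome, whereas its proteins are encoded in the nucleus, made in the cytosol and imported. Activated T cells build new mitochondria as they grow, so these genes belong to the background machinery of a growing T cell.

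Each library gave a deposited fragment count per gene, made with the strand option of the counter set to 1, so a count stands for fragments that this option assigned to the annotated strand of the gene. Total counts were 1780682, 1857433, 1446040 and 1274431 in replicates 1 to 4, and a count of 0 allows a level of up to 1.68, 1.62, 2.07 and 2.35 counts per 1000000 (CPM), 3 counts of the total, for counting error only. Genes with no exon sequence shared with a gene of the other strand held 16.4%, 8.54%, 9.14% and 20.1% of the counts. Genes that share some, 16.2% of all genes, held 83.6%, 91.5%, 90.9% and 79.9%. The part of the strand option in this was not tested. The sources used here do not state which strand the library protocol reads, so it is not settled that option 1 matches the libraries. If it does not, the counts stand for the other strand in every gene. The ratios, ranks and TPM (counts per exon length, scaled within the library) of genes with an opposite exon would take the meaning of that strand. The values of genes without one, markers included, would then rest on fragments of a strand with no annotated exon there. This holds for their medians, ranks and order between libraries as well. Counts were therefore not taken as mRNA levels. All 6 T cell markers and all 4 Th2 markers had counts. All 4 markers of CD8 and natural killer cells and all 4 granulocyte markers were at 0, as were 3 of 4 myeloid markers. The B cell marker Cd79a, which has no opposite exon, had 35, 41, 9 and 2 counts in replicates 1 to 4, and its part in the results was not tested. The fourth myeloid marker, Csf1r, had 542 to 827 counts and has an exon opposite another gene. Its mean of 131 TPM was above that of every T cell and Th2 marker, of which Cd2 at 63.1 TPM and Il13 at 97.8 TPM were the highest. Its part in the results was not tested.

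Because counts are assigned by strand, any exon sequence shared with a gene on the other strand was noted for each mitochondrial ribosomal gene. Such an opposite exon, sharing at least 1 bp, was annotated for 26 of the 78 genes (33.3%), against 31.5% of the protein-coding genes with any count and 16.2% of all genes. The other 52 had none. A head-to-head pair within the family is shown here because each of its genes is the opposite gene of the other. Mrpl46, a protein of the central protuberance of the large subunit, and Mrps11, a small subunit protein whose bacterial counterpart lies on the platform, are transcribed away from each other on chromosome 7. Their RefSeq starts (GRCm38.p6) lie 42 bp apart, with that of Mrps11 at 78783131 on the plus strand and that of Mrpl46 at 78783089 on the minus strand. In the files' annotation, their exons share 173 bp, although the RefSeq starts point away from each other without overlap. The RefSeq windows of 250 bases before to 50 after each start, chr7:78782881-78783180 for Mrps11 and chr7:78783040-78783339 for Mrpl46, are given 5′ to 3′ on the strand of each gene, with the 141 bases found in both windows in capitals.
Mrps11: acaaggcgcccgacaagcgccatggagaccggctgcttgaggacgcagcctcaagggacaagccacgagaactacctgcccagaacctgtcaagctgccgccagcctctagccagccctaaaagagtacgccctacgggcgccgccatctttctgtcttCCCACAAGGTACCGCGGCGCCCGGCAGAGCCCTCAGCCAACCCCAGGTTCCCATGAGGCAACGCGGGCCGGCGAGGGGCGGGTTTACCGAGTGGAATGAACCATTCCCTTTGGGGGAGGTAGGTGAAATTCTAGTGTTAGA
Mrpl46: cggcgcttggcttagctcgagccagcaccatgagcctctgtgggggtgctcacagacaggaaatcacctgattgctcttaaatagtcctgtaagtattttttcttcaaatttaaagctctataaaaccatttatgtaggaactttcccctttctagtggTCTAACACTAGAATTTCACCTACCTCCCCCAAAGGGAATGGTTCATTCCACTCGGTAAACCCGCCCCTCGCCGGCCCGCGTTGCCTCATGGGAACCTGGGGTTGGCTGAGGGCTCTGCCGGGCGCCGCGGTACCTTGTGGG
The capitals of one window are the reverse complement of those of the other because both windows cover the same bases there. They do not delimit the shared exon.

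Counts on the strands of this pair were unequal. Mrpl46 had 298, 285, 245 and 199 counts in replicates 1 to 4, whereas Mrps11 had 22, 3, 0 and 3. Per kb of exon, Mrpl46 exceeded Mrps11 by 6.00 ± 1.33 on the log2 scale (SD, n = 4, with 1 count per kb added) and was higher in 4 of 4 libraries. The exact two-sided sign-flip permutation test over 4 libraries cannot give a p below 0.13, or 0.14 after Benjamini-Hochberg adjustment over the 28 pairs compared, so size, SD and direction carry this and the following pair comparisons.

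All 78 genes had at least 1 count. Counts above 0 were found for 77, 70, 57 and 74 of them in replicates 1 to 4. The lowest were Mrpl23, of the peptide exit region of the large subunit, with a single count in replicate 4, Mrpl53 with 2 counts in replicate 1, and Mrps31 with 4 counts in replicate 1. Together the 78 genes held 0.443% of the counts of replicate 1 (95% Wilson interval 0.434 to 0.453), 0.423% (0.414 to 0.433) of replicate 2, 0.438% (0.427 to 0.449) of replicate 3 and 0.457% (0.445 to 0.469) of replicate 4. The 26 genes with an opposite exon accounted for 0.387%, 0.397%, 0.413% and 0.385%, and the 52 without one for 0.0565%, 0.0270%, 0.0244% and 0.0718%. The share with an opposite exon thus stayed within a narrow range, while the share without one was highest in replicate 4 and lowest in replicate 3.

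**Figure D1:**
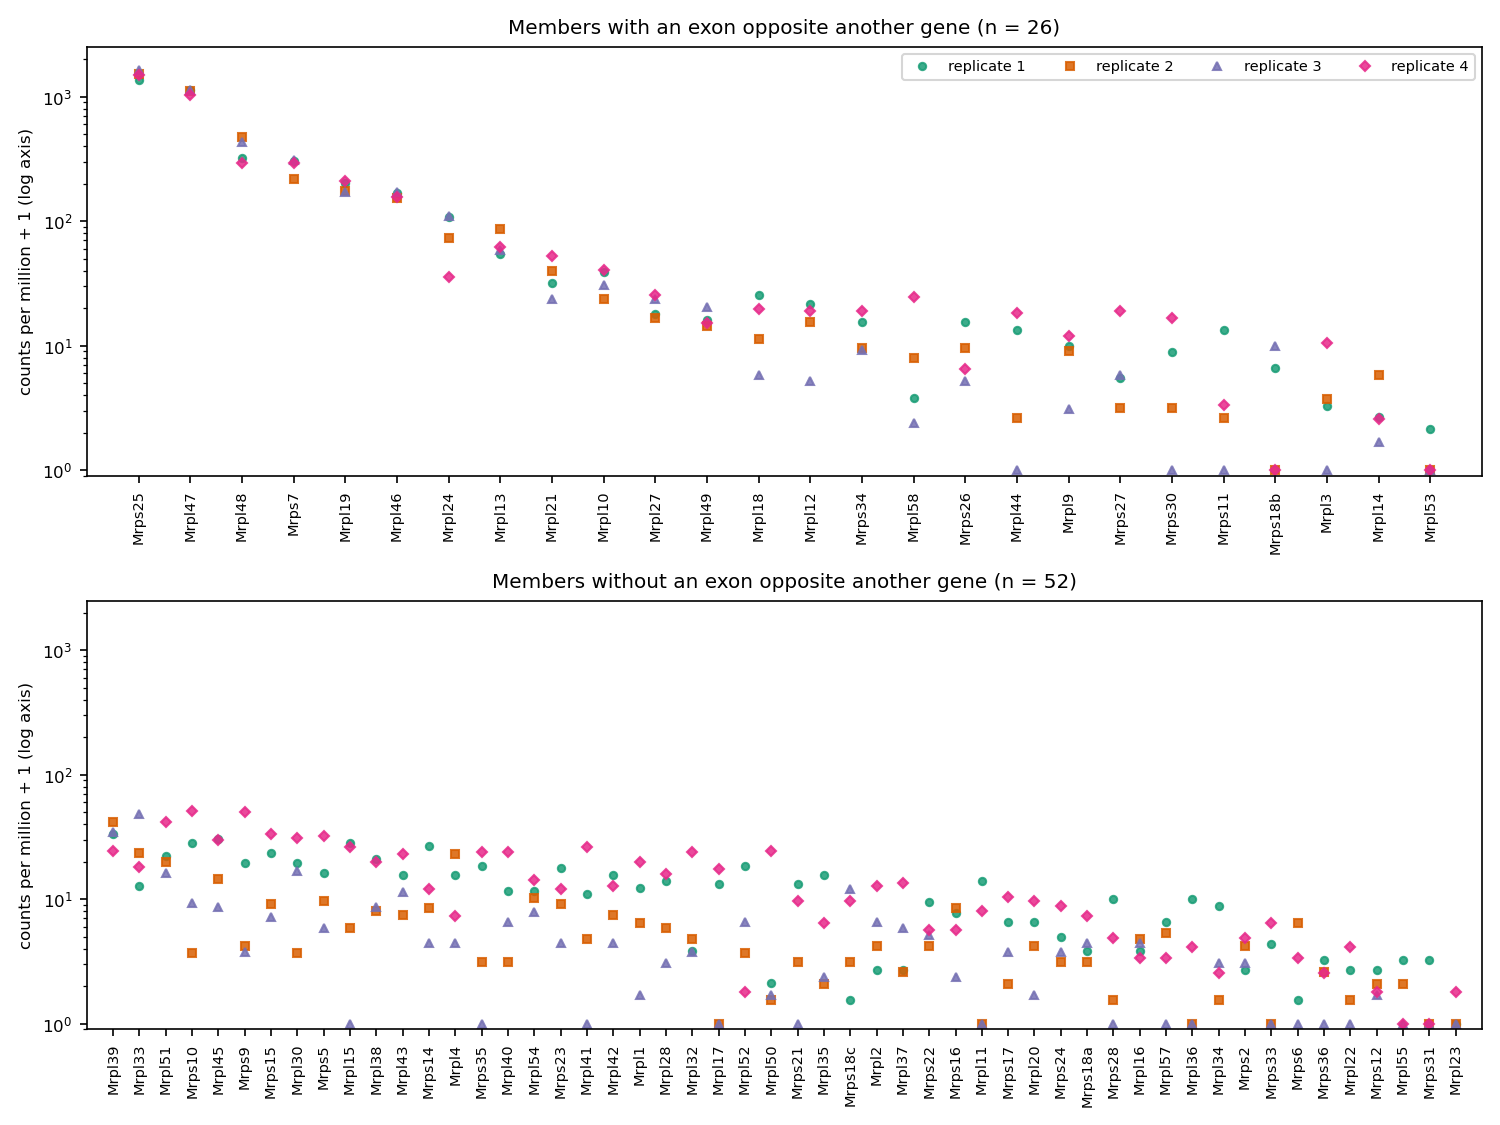
CPM + 1 on a log axis for each mitochondrial ribosomal gene in each of the 4 libraries, with 26 genes that have an opposite exon above and 52 genes that have none below, ordered by mean. The upper panel reaches 1627 CPM at Mrps25, while in the lower panel no gene exceeds 50.2 CPM and the points of one gene lie farther apart.

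A few genes with opposite exons held most of these counts. Mrps25, a small subunit protein without a bacterial counterpart (chromosome 6, 92169525 to 92184033, mm10), had 2416, 2807, 2353 and 1885 counts and alone made up 30.6% to 37.2% of all counts of the 78 genes. Mrpl47, a large subunit protein related to bacterial L29 (chromosome 3, 32725397 to 32737605), had 2000, 2065, 1638 and 1321 counts. With it the share was 55.1% to 63.0%, and the 10 genes of highest count reached 79.6% to 92.7%. Per length, the order changed. Mrpl47 was first at 369 ± 13.4 TPM (computed here from the counts and exon lengths, SD, n = 4). It was ahead of Mrps25 at 337 ± 21 TPM, Mrps7 at 201 ± 35.7 TPM and Mrpl46 at 170 ± 11.8 TPM. All 4 have an opposite exon, so the order is one of counts by strand and not of mRNA levels. Mrps7, of the head of the small subunit, ranged from 148 to 223 TPM, and Mrpl46 from 153 to 180 TPM. Their ranges overlapped, and Mrps7 was the higher in replicates 1, 3 and 4.

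Each of these 4 genes lay opposite a gene with fewer counts per kb. Mrps25 shares 4590 bp of exon, 69.8% of its exon length, with the 3′ end of Nr2c2, a nuclear receptor gene, which had 182, 205, 188 and 185 counts. Its excess over Nr2c2 per kb was 4.70 ± 0.19 on the log2 scale, and the 4 libraries lay between 4.43 and 4.86. Mrpl47 lies between Ndufb5, a subunit of respiratory complex I, at its start and Actl6a, an actin-related protein of chromatin remodelling complexes, at its end. Ndufb5 had 13, 6, 0 and 41 counts, and Mrpl47 exceeded it by 7.07 ± 1.5. Actl6a had 79, 83, 35 and 49 counts, and Mrpl47 exceeded it by 4.62 ± 0.40. Mrps7 had 536, 405, 446 and 374 counts, while its neighbours Mif4gd had 5 to 10 and Gga3, which sorts cargo at the Golgi, 13 to 65. The excess of Mrps7 was 5.47 ± 0.43 over Mif4gd and 5.10 ± 0.75 over Gga3.

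In other pairs the excess was smaller or the order was the reverse. Mrpl48, of the central protuberance, had 573, 885, 618 and 370 counts and exceeded Rab6a, a Golgi GTPase gene with 57, 9, 23 and 79 counts, by 2.90 ± 1.70. Mrpl21, with 55, 72, 33 and 66 counts, exceeded the helicase gene Ighmbp2 by 2.64 ± 0.54. Mrpl13, with 95, 159, 83 and 78 counts, exceeded Mtbp by 1.69 ± 0.94. Mrpl19 shares 1962 bp with Gcfc2, and its excess was 0.81 ± 0.23, positive in 4 of 4 libraries. Mrpl24, next to the peptide exit of the large subunit, had 192, 135, 157 and 44 counts, against 2132, 2513, 2049 and 1853 counts for Rrnad1 on the other strand. Its log2 ratio to Rrnad1 was -2.68 ± 0.83, and replicate 4 was the lowest library.

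The largest gaps in the reverse direction, from -7.33 for Mrpl12 to -6.53 for Mrpl53 with Ccdc142os, were found where the gene opposite was a non-coding one. Mrpl53 shares only 15 bp with Ccdc142os, but 695 of its 790 bp with Gm42688 on its own strand. The part of that same-strand overlap in its ratio was not tested. Other gaps to non-coding genes, such as that of Mrpl10, were smaller than some to protein-coding genes. Mrpl12, the stalk protein of the large subunit that also binds the mitochondrial RNA polymerase, had 37, 27, 6 and 23 counts, against 2378, 2686, 1935 and 1524 counts for the lincRNA Gm16755 within its bounds, a log2 ratio of -7.33 ± 0.97. Mrpl10, which anchors the stalk, had 68, 42, 43 and 50 counts, against 736, 971, 584 and 483 counts for Gm11574, a log2 ratio of -4.56 ± 0.55. The third stalk gene of the panel, Mrpl11, which has no opposite exon, had 23, 0, 0 and 9 counts. Mrps18b, 1 of 3 paralogs related to bacterial S18, had 10, 0, 13 and 0 counts, against 650 to 1234 counts for the antisense gene Gm16279, a log2 ratio of -6.91 ± 1.61. Its paralog Mrps18c, without an opposite exon, had 1, 4, 16 and 11 counts, and Mrps18a had 5, 4, 5 and 8. Mrps26 had 26, 16, 6 and 7 counts, against 533 to 1071 for the antisense gene 4930473A02Rik, although the pair shares only 8 bp of exon.

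Protein-coding neighbours also stood above mitochondrial ribosomal genes. Mrps34, needed for a stable small subunit, lies largely within the exons of Mapk8ip3, a JNK scaffold gene, with 1309 bp shared. It had 26, 16, 12 and 23 counts, against 2142, 2424, 1932 and 1393 for Mapk8ip3, a log2 ratio of -3.75 ± 0.64. Mrpl18, of the large subunit, had a ratio of -4.05 ± 0.97 to Tcp1, a subunit of the cytosolic chaperonin. Mrpl9 stood at -5.26 ± 0.97 against Oaz3, an antizyme gene known for its expression in testis, and Mrpl27 at -3.36 ± 0.51 against the endonuclease subunit gene Eme1. Mrps30, placed in the large subunit by structures despite its name, had 14, 4, 0 and 20 counts, against 323 to 589 for B430218F22Rik, a ratio of -6.04 ± 1.86.

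Over the 28 pairs formed by the 26 genes, the mitochondrial ribosomal gene was higher per kb in all 4 libraries in 10 pairs and its partner in all 4 in 15. The Mrpl46 and Mrps11 pair is in both counts, once from each side. In 3 pairs the direction differed between libraries, namely Mrpl44 with Wdfy1, Mrpl49 with Syvn1 and Mrpl3 with Gm47106. Of the 20 pairs with a protein-coding partner, the mitochondrial ribosomal gene was higher in 10 and the partner in 8. Of the 8 pairs with a non-coding partner, the mitochondrial ribosomal gene was higher in all 4 libraries in 0 and the partner in 7. By geometry, 15 pairs were head to head (6 against 8), 9 tail to tail (4 against 3), 3 had the partner within the bounds of the mitochondrial ribosomal gene (0 against 3) and 1 had it within those of the partner (0 against 1). No test of these counts was made. Where a gene of the pair had 0 counts in some library, the size of the ratio depends on the count added. With 0.1 in place of 1 count per kb, it was 8.23 for Mrpl47 over Ndufb5, 7.20 for Mrpl46 over Mrps11, -7.03 for Mrps30 over B430218F22Rik and -8.67 for Mrps18b over Gm16279. For Mrpl53 over Ccdc142os it went from -6.53 to -9.12, the lowest ratio of the 28 pairs at that setting.

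**Figure D2:**
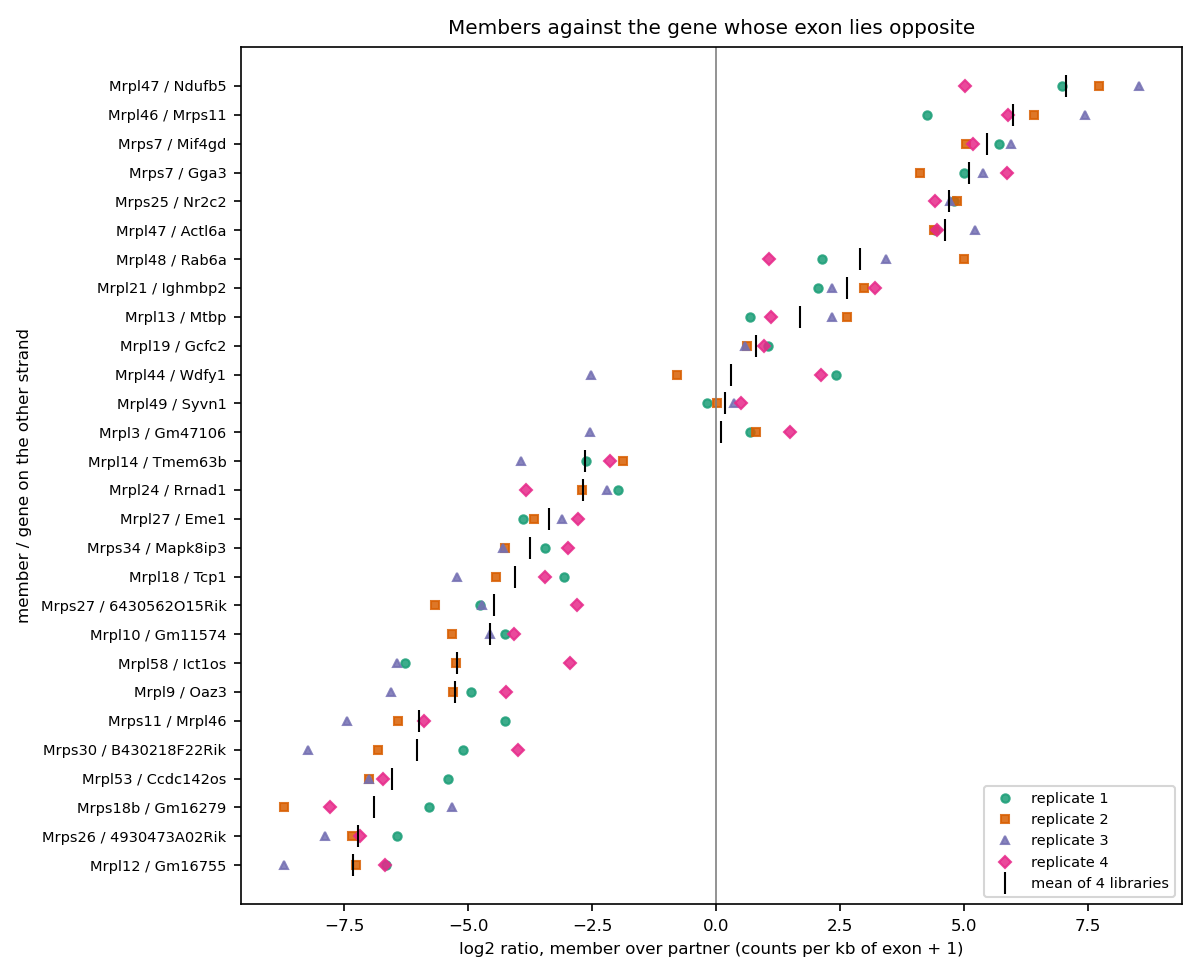
Log2 ratio of counts per kb of exon + 1 for each of 28 pairs, mitochondrial ribosomal gene over the gene whose exon lies opposite, with 1 symbol for each library and a black bar for the mean of 4 libraries. The means run from 7.07 for Mrpl47 over Ndufb5 to -7.33 for Mrpl12 over Gm16755, and in 25 of 28 pairs all libraries lie on 1 side of 0.

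Counts per length of the whole set were compared with other protein-coding genes as a description. The median of the 26 genes with an opposite exon was 12.4, 10.7, 5.98 and 16 TPM in replicates 1 to 4, a mean of 11.3 ± 4.17 TPM (SD, n = 4). The 3841 protein-coding genes that had an opposite exon and any count had a median of 4.64 ± 1.71 TPM. Without an opposite exon, the 52 mitochondrial ribosomal genes had a median of 5.03, 1.96, 1.35 and 5.39 TPM, a mean of 3.43 ± 2.08 TPM, against 1.58 ± 1.05 TPM for 8339 such protein-coding genes. Cytosolic ribosomal protein genes without an opposite exon, 69 in number, had 105 ± 69.7 TPM. Replicates 1 and 4 were above replicates 2 and 3 in each of these medians.

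The 52 genes without an opposite exon covered a range of mean values from 0.0631 TPM for Mrpl23 to 19.0 TPM for Mrpl39. Mrpl39, a large subunit protein specific to mitochondria (chromosome 16, 84717576 to 84735742), had 19.6, 22.7, 19.2 and 14.6 TPM. Mrpl54 followed with 19.7, 15.6, 12 and 25.4 TPM. Mrpl41 had 17.3, 5.97, 0 and 44.4 TPM, Mrpl43 had 18.3, 7.5, 12.3 and 28.5 TPM and Mrps15, a small subunit protein, had 20.2, 6.71, 5.28 and 29.9 TPM. Mrpl32, whose maturation depends on a protease of the inner membrane, had 5.56, 6.91, 5.17 and 46.6 TPM, so that its mean of 16.1 TPM came largely from replicate 4. The values of these 6 genes overlapped each other across the libraries, and their order is not one beyond the spread.

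The panel chosen by role also covered genes without a place among the highest counts. Of its peptidyl transferase and tunnel genes, Mrpl2 had 3, 6, 8 and 15 counts, Mrpl3 had 4, 5, 0 and 12 and Mrpl4 had 26, 41, 5 and 8. Mrpl45, which holds the exit of the tunnel at the inner membrane, had 52, 25, 11 and 37 counts. Of the decoding and body genes of the small subunit in the panel, Mrps12, the counterpart of the bacterial protein at the decoding site, had 3, 2, 1 and 1 counts, Mrps2 had 3, 6, 3 and 5, and Mrps5 had 27, 16, 7 and 40. Mrps35 had 31, 4, 0 and 29 counts and Mrps27, a pentatricopeptide repeat protein, had 8, 4, 7 and 23. Mrps36, known in mammals as a component of the 2-oxoglutarate dehydrogenase complex rather than of the ribosome, had 4, 3, 0 and 2. Mrpl58, a peptidyl-tRNA hydrolase built into the large subunit, had 5, 13, 2 and 30 counts, and Mrpl44, with a ribonuclease III-like fold, 22, 3, 0 and 22. 

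By symbol, the large subunit genes without an opposite exon were somewhat above the small subunit ones. Their medians were 6.03, 2.61, 1.90 and 5.49 TPM for 31 Mrpl genes, against 3.21, 1.56, 1.02 and 5.30 TPM for 21 Mrps genes. The difference was 1.24 ± 1.12 TPM and positive in 4 of 4 libraries, though it is small beside the range within each list. Among genes named Mrps, Mrps30 and Mrps18a are placed in the large subunit by structures and were left under their symbols. Of these, only Mrps18a is among the 21 compared here, since Mrps30 has an opposite exon.

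Variation between replicates beyond counting error was common, as in the rest of the transcriptome. Of the 78 genes, 45 had a mean count of at least 10 and were tested, 20 with and 25 without an opposite exon. A chi-square test was made against Poisson sampling, with totals scaled by TMM factors of 1.09, 0.81, 0.93 and 1.23 in replicates 1 to 4. Adjusted over all 7752 genes tested, it called 38 of the 45, while 88.4% of all genes were called. With an opposite exon, 15 of 20 genes were called (75%), against 89.0% of all tested genes of that class, and without one 23 of 25 (92.0%), against 87.7%. The 7 genes not called were Mrpl9, Mrpl10, Mrpl27, Mrpl43, Mrpl49, Mrpl54 and Mrps34. Adjusted p was 0.75 for Mrpl54, with 19, 17, 10 and 17 counts, and 0.73 for Mrpl10. The median coefficient of variation of CPM was 29.1% for genes with an opposite exon and 72.7% for those without, against 30.0% and 70.3% over all genes tested. Among the 10 genes of highest count, the coefficient ran from 3.98% for Mrpl47 to 43.5% for Mrpl24, with 7.44% for Mrps25, 23.1% for Mrpl48 and 15.0% for Mrps7. CPM used unscaled totals, so the coefficient and the chi-square test do not measure the same spread. Mrpl47, Mrps25 and Mrpl46 (4.93%) varied little in CPM, yet the chi-square test with scaled totals called them. Its adjusted p was 7.6e-48, 3.0e-80 and 4.1e-05.

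The variation of genes without an opposite exon followed the libraries. Of the 25 tested, 15 (60.0%) were highest in replicate 4 and 7 (28.0%) in replicate 1. Over all tested genes without an opposite exon the shares were near these, 58.7% and 27.3%. The lowest library was replicate 3 for 16 (64.0%) and replicate 2 for 6 (24.0%), against 42.9% and 40.2% over all. Both replicates 1 and 4 lay above both replicates 2 and 3 in 20 of the 25 (80.0%), and in 67.8% of all 3827 genes without an opposite exon that were tested. Mrps10, with 49, 5, 12 and 64 counts, and Mrps9, with 33, 6, 4 and 63 counts, are examples. Mrpl33, of the large subunit, had the other order with 21, 42, 68 and 22 counts, and Mrpl39 was lowest in replicate 4. With an opposite exon the same order held in 7 of 20 genes (35.0%), against 25.1% of 3925 genes. Summed, the 6 T cell markers had the same order, with 0.0323%, 0.0135%, 0.00781% and 0.0470% of the counts in replicates 1 to 4. So had the whole class of genes without an opposite exon. Among the markers, the order held for the 5 without an opposite exon but not for Cd3e, at 3.98, 3.16, 5.35 and 9.67 TPM. The Th2 markers Il13 and Gata3 had it. Il4, with 104, 110, 84 and 64 counts, and Il5, with 6, 7, 1 and 17, did not. The part of these genes in the result was not tested. As a share of the counts of that class alone, the 52 genes made up 0.344%, 0.316%, 0.267% and 0.357%. The cause of the order between libraries was not tested. In bulk samples, fewer cells of a type, less RNA per cell and a difference between libraries as such cannot be told apart.

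**Figure D3:**
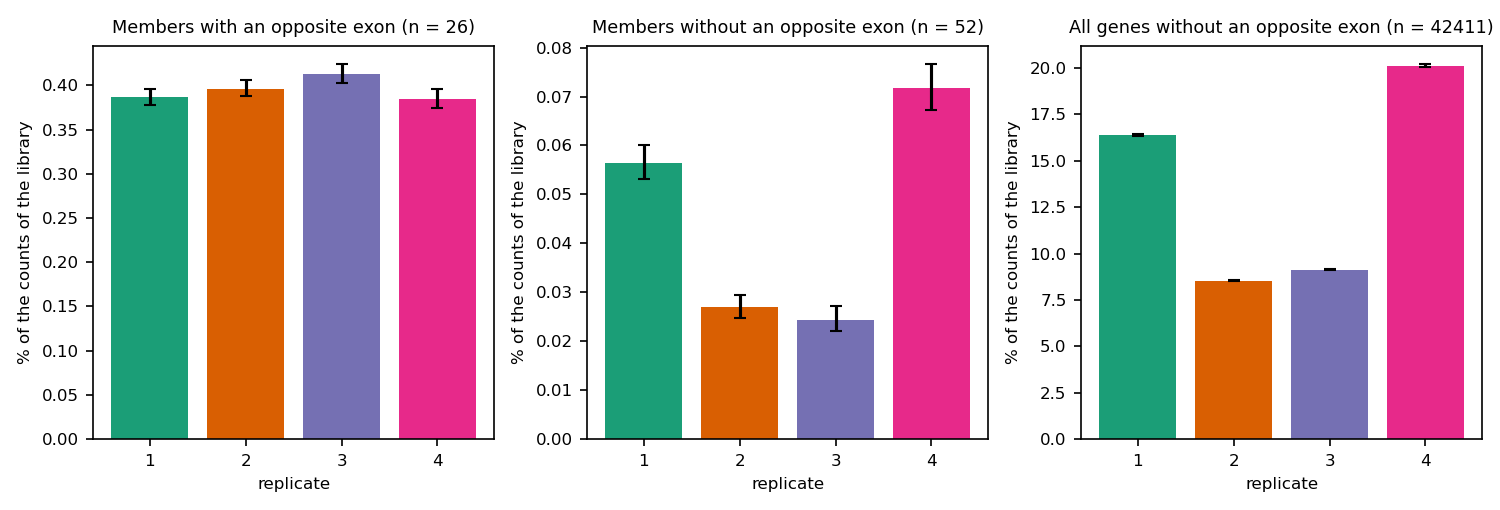
Percent of all counts of each library held by the 26 mitochondrial ribosomal genes with an opposite exon, the 52 without one and all 42411 genes without one, with 95% Wilson intervals for counting error. The first panel stays between 0.385% and 0.413%, while in both other panels the bars of replicates 1 and 4 stand above those of replicates 2 and 3.

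Each library was set against the other 3 with edgeR's quasi-likelihood test, adjusted by Benjamini-Hochberg over 7752 genes. In replicate 1, 0 of the 45 mitochondrial ribosomal genes were called, where 0.0% of all genes were. In replicate 2 the count was 0, beside 0.0129% of all genes, in replicate 3 it was 0, beside 0.0387%, and in replicate 4 it was 0, beside 0.0%. At an unadjusted p under 0.05 the counts were 0, 2, 6 and 2 genes in replicates 1 to 4, and DESeq2 called 0 in each. The 2 of replicate 2 and the 6 of replicate 3 were all lower in that replicate, and of those of replicate 4, 1 was higher and 1 lower. With 1 library left out, edgeR called 2 of these genes in replicate 2 (without replicate 3), 5 in replicate 3 (without replicate 2) and 5 in replicate 4 (without replicate 1). These were 2 of 51, 5 of 50 and 5 of 43 tested, beside 4.88%, 9.21% and 14.9% of all genes in the same fits. Over all genes the unadjusted share was 0.426%, 2.79%, 9.37% and 8.81%.

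The fitted differences nevertheless had a direction in the genes without an opposite exon. Their median log2 fold change was 0.42 for replicate 1, -0.80 for replicate 2, -1.49 for replicate 3 and 0.91 for replicate 4 against the other 3. Over the 3827 tested genes without an opposite exon, it was 0.29, -0.86, -0.93 and 0.75. For the 20 genes with an opposite exon, the medians were -0.07, 0.11, -0.07 and -0.01. Each of these comparisons shares its libraries with the other 3, so they are not independent of each other.

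**Figure D4:**
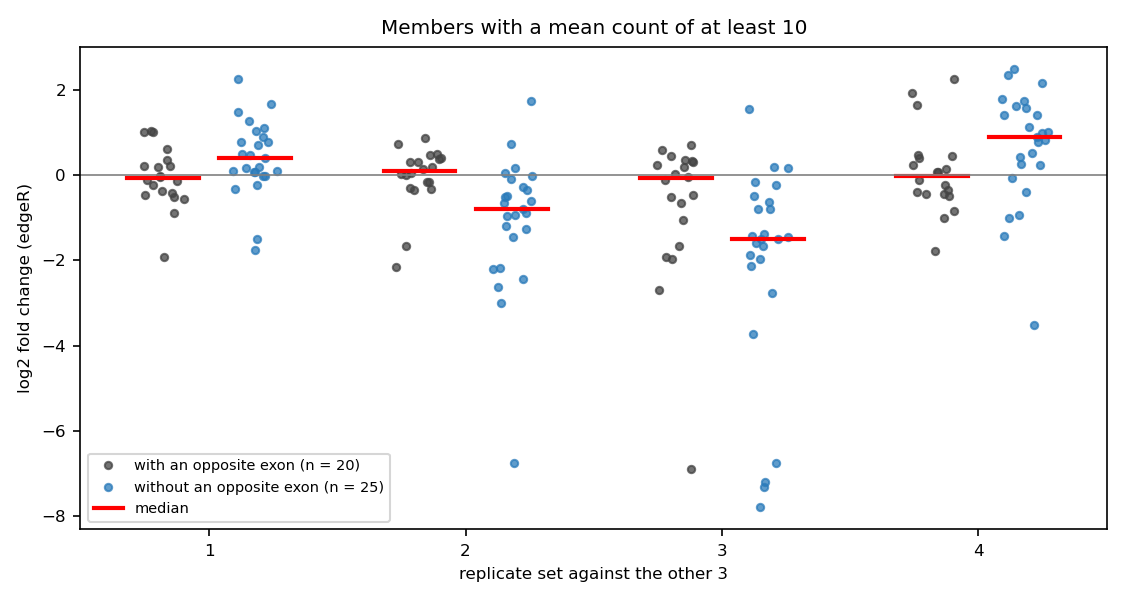
Log2 fold change (edgeR) of each of the 45 tested mitochondrial ribosomal genes when 1 replicate is set against the other 3, with 20 genes that have an opposite exon in grey and 25 that have none in blue, and medians in red. The grey medians stay near 0, between -0.07 and 0.11, and the blue ones run from -1.49 in replicate 3 to 0.91 in replicate 4, while points below -6 are genes with 0 counts in the replicate named, whose fitted size depends on the prior count.

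Mitochondrial ribosomal proteins with other names and the wider translation machinery were described in the same way. Of 5 such ribosomal proteins, 4 were tested and all 4 varied beyond counting error, where 88.4% of all genes did. Gadd45gip1, a large subunit protein also known as CRIF1 with 1048 bp of opposite exon, had 507 ± 61.4 TPM, whereas Ptcd3, a small subunit protein without one, had 4.32 ± 3.37 TPM and Dap3, a small subunit GTP-binding protein with 352 bp, had 6.18 ± 3.22 TPM. Of 15 translation factors, 10 were tested and 9 varied. Those with an opposite exon had a median of 53.2 ± 6.26 TPM, with the initiation factor Mtif3 highest at 441 ± 35.5 TPM. Those without one had 2.05 ± 1.74 TPM, including the elongation factor Tufm at 7.06 ± 4.51 TPM. Of 32 assembly and rRNA modification genes, 15 were tested and 12 varied. Slirp, an RNA-binding partner of Lrpprc, had 867 ± 61.8 TPM with 1067 bp of opposite exon, and Lrpprc, without one, 2.28 ± 2.31 TPM. As above, these TPM were not taken as mRNA levels. With 1 library set against the other 3, edgeR called 0 genes of these 3 lists in any replicate, as did DESeq2, and at an unadjusted p under 0.05 there was 1 translation factor gene lower in replicate 2 and 1 assembly gene lower in replicate 3. The mitochondrial rRNAs mt-Rnr1 and mt-Rnr2, with which the proteins assemble, had 329, 51, 66 and 363 counts and 483, 142, 143 and 391 counts, again higher in replicates 1 and 4.

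Promoter sequence was examined as a feature of the family that the counts did not use. RefSeq windows (GRCm38.p6) were found for 69 of the 78 genes. The letters searched, on both strands, were GCATGCGC (core of the motif of NRF1, a regulator of nuclear genes for mitochondria), CCGGAAG (ETS family, which includes GABPA) and AAGATGG (YY1). GCATGCGC was present in 8 of 69 genes (11.6%), against 4.12% of 16469 protein-coding genes, CCGGAAG in 26 (37.7%), against 13.4%, and AAGATGG in 13 (18.8%), against 7.27%. At least 1 of the 3 was present in 38 genes (55.1%), against 22.4%. A match describes letters in a window and is not a site of binding. Mrps12 (chr7:28741772-28742071, minus strand), for the decoding site protein, holds both CCGGAAG and the reverse complement of AAGATGG, and Mrpl10 (chr11:97041332-97041631, plus strand), for the stalk base, holds GCATGCGC. Their windows are printed 5′ to 3′ because they show the 3 motifs in genes of the panel, with the motifs in capitals.
Mrps12: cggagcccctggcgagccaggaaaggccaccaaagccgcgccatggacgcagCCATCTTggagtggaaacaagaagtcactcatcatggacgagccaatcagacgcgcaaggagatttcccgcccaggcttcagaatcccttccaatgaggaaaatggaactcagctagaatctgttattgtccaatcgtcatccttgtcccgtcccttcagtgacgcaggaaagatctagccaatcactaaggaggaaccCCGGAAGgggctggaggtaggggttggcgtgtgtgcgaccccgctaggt
Mrpl10: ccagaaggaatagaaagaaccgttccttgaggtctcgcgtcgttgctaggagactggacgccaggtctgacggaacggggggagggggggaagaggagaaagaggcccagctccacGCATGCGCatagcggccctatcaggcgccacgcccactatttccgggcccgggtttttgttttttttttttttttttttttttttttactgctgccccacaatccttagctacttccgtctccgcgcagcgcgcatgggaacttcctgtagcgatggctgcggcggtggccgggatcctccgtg
Of the pair printed earlier, the window of Mrps11 holds the reverse complement of AAGATGG and that of Mrpl46 none of the 3.

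Exons shared on the same strand also touch these values, since the headers show no option to count fragments that overlap several genes. Such an overlap was annotated for 8 of the 78 genes. Mrpl53 shares 695 of its 790 bp with Gm42688, which had 6 to 40 counts, and Mrps34 shares 763 bp with Nme3, which had 0 to 7. The part of these overlaps in the counts and pair ratios of Mrpl53 and Mrps34 was not tested. For the other 6, Mrpl3, Mrpl33, Mrpl51, Mrps6, Mrps18c and Mrps24, the shared length was 87 to 261 bp. Of the 5 pseudogenes left out, 3 had no count and the other two 1 and 2 counts in all.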

How the data were processed

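RNA of 4 mouse Th2 libraries was measured as gene counts, an assay labelled total RNA-seq although the linked library protocol names poly(A)+ RNA. The deposited counts are raw fragment counts per gene, made by the authors with featureCounts v1.4.6-p4 over exons on paired alignments, with strand option 1, both ends mapped, GENCODE M13 and mm10, per the file headers. Names came from GENCODE M21, which matched 50376 of 50600 gene identifiers. Computed here were CPM over all genes, TPM from counts and exon lengths, and exon overlaps by strand with bedtools 2.31.1.

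A mean count of 10 or more was reached by 7752 genes. Their 4 counts were set against Poisson expectation (chi-square, TMM-scaled totals), and each library was set against the rest by edgeR 4.0.16 (quasi-likelihood, R 4.3.3). Both were adjusted by Benjamini-Hochberg over all 7752 at 0.05. DESeq2 1.42.0 was an alternative. The tests were tried on simulated data first. Pairs used log2 ratios of counts per kb + 1 and an exact sign-flip permutation test. Shares have 95% Wilson intervals, which cover counting error only.

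The mitochondrial ribosomal genes and the gene lists (5 other mitoribosomal proteins, 15 translation factors, 32 assembly genes, 2 mitochondrial rRNAs, cytosolic ribosomal proteins, cell type markers) were chosen with earlier results of these data known. Genes named with values were a panel of 23 by role, the 10 of highest mean count, the 6 of highest mean TPM without an opposite exon and the 6 with the longest exon shared with a counted gene. Others, such as the remaining pairs and single examples (Mrpl33, Mrps9, Mrps10, Mrps26 and the lowest 3), were named after their values were seen. Of the list symbols, Mtrfr, C12orf65 and Wbscr16 had no match. Some markers are not reported here. Alternatives were other size factors, no or another filter on low counts, another pseudocount, other definitions of an opposite exon, other scalings and leaving out each library.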

Additional observations from a re-analysis of the deposited data

Results flagged for a closer look

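The CPM of each named gene with a mean count of 10 or more, and the summed shares of counts, were searched for a library lying far from the other 3 relative to the whole range. Of 28 such sets of 4 values, chance marks about 1 in 20. Such a library was found in 3 of them. Mrpl32 had 22.76 CPM in replicate 4, against 2.77 to 3.77 CPM in the other 3 libraries. Mrps27 had 18.05 CPM in replicate 4, against 2.15 to 4.84 CPM in the others. Mrps7 had 218.0 CPM in replicate 2, against 293 to 308 CPM in the others. CPM used unscaled totals. With TMM-scaled totals, the edgeR log2 fold change against the other 3 was 2.50 for Mrpl32 and 1.93 for Mrps27 in replicate 4. It was only -0.17 for Mrps7 in replicate 2. Replicate 4 was also the library in which genes without an opposite exon held the largest share of counts, 20.1%, and replicate 2 the one in which they held the smallest, 8.54%. Mrpl32 is of that class, whereas Mrps27 and Mrps7 have an opposite exon. The part of that share in these values was not tested.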

How the results depend on the processing

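No paired comparison between groups was possible because all 4 libraries form 1 group. Only the gene pairs were compared within each library. With 1 library set against the other 3, the count of all genes called changed from 1 to 3 in replicate 2 and from 0 to 3 in replicate 4, with median-of-ratios size factors and with no filter on low counts alike, and from 3 to 0 in replicate 3 with DESeq2. Leaving out 1 library gave 0 to 169 genes for replicate 1, 1 to 400 for replicate 2, 2 to 741 for replicate 3 and 3 to 1083 for replicate 4, and 0 to 0, 0 to 2, 0 to 5 and 0 to 5 mitochondrial ribosomal genes. The highest counts came for replicate 1 without replicate 4, replicate 2 without replicate 3, replicate 3 without replicate 2 and replicate 4 without replicate 1. The median of genes with an opposite exon, 11.26 TPM, was 16.10 with a shared length of at least 100 bp, 20.11 for genes of mean count 10 or more and 15.72 without genes that overlap another on their own strand, a choice made after seeing the data. The median of genes without one, 3.433 TPM, was 6.849 for genes of mean count 10 or more and 26.37 with TPM taken over genes without an opposite exon alone. The excess of large over small subunit genes, 1.235 TPM, was 2.900 in CPM. The share of genes without an opposite exon, 0.04492% of all counts, was 0.3209% of the counts of that class, also chosen after seeing the data. Leaving out 1 library moved these values within 9.681 to 13.03 TPM, 2.779 to 4.128 TPM, 0.7063 to 1.584 TPM and 0.03596% to 0.05175%. For Mrpl44 over Wdfy1, 0.31 on the log2 scale, the sign turned with a pseudocount of 0.1 (-0.3138), without replicate 1 (-0.3976) and without replicate 4 (-0.2986), and was 1.251 without replicate 3. For Mrpl3 over Gm47106, 0.11, it turned without replicate 1 (-0.08129), replicate 2 (-0.1244) or replicate 4 (-0.3505), and was 0.9909 without replicate 3. The cause of these changes was not tested. Depth limits the genes without an opposite exon most, since 27 of the 52 had a mean count under 10 and entered no test across genes.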
